A study of Mus musculus with 4 samples.

Results

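Of the 16327 human cells that passed the limits on quality in this series, 731 were C1Q macrophages that expressed TGFB2 or ERRFI1, called TGFB2/ERRFI1 macrophages here. Each held at least 10 unique molecular identifiers (UMIs, the counted RNA molecules) of C1QA, C1QB and C1QC together and at least 3 UMIs of TGFB2 and ERRFI1 together. Limits on LYVE1, CXCL10, IL1A with CCL20, SLC2A1 with HILPDA and ADM, MT1G with MT1H, cell cycle genes, CD3 genes and keratins held the markers of other macrophage states, T cells and carcinoma cells low. The cells were chosen by the measured UMIs of these 21 genes, so their levels are a description and carry no test. The 2230 C1Q macrophages that met every other limit but held at most 2 UMIs of TGFB2 and ERRFI1 served as the reference, and the TGFB2/ERRFI1 macrophages were 24.7% of the 2961 cells of both kinds.

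The cells came from MDA-MB-231 tumors, a human breast carcinoma line, grown in the mammary fat pad of MISTRG mice. These humanized mice carry human genes for M-CSF, GM-CSF and IL-3, and all had been engrafted with human fetal CD34+ hematopoietic stem cells. Of the 14 mice, 7 received the drug maraviroc in their drinking water and 7 were untreated. Cells were marked with 1 hashtag antibody per mouse, and live human CD45+ cells were then sorted and profiled by 3' single-cell RNA-seq in 2 reactions, so the mouse was the replicate. The first reaction pooled 4 untreated mice with 3 that received the drug, and the second pooled 3 with 4. The macrophages developed from fetal stem cells under knocked-in human cytokines, which limits them as a model of patient macrophages. Treatment was read from the hashtag names. Reaction 1 held 133089612 UMIs in 29120 barcodes and reaction 2 held 175447534 UMIs in 13582 barcodes, and the libraries had 136 barcode sequences in common. Summed over its kept cells, an untreated mouse had between 7265382 and 16681870 UMIs (median 8768372), and a maraviroc-treated mouse between 7049543 and 18040716 (median 12790553).

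TGFB2 encodes a ligand of the transforming growth factor β family, which is secreted in a latent form, released by integrins and proteases, and signals through paired receptors to SMAD proteins. ERRFI1, also called MIG6, encodes an intracellular inhibitor that binds active receptors of the EGF receptor family and is itself induced by growth factor and stress signals, so that it closes a feedback loop. C1q is the first component of the classical complement pathway, and its subunits are made by tissue macrophages, including those of many tumors.

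TGFB2 stood at 375 UMIs per 1000000 UMIs of the same cells (CPM) in the TGFB2/ERRFI1 macrophages and at 10.5 CPM in the reference, and ERRFI1 at 585 and 21.9 CPM. Over the 13 mice with at least 10 cells of each kind, TGFB2 ranged from 183 to 600 CPM in the TGFB2/ERRFI1 macrophages (median 338) and from 4.58 to 20.7 CPM in the reference (median 8.32). ERRFI1 ranged from 449 to 792 CPM (median 631) and from 10.1 to 35.5 CPM (median 22.5). This separation was set by the choice of cells. Other cells of the same libraries, with at most 2 C1Q UMIs, give the background. TGFB2 had at least 1 UMI in 57.5% of the TGFB2/ERRFI1 macrophages (median 11013 UMIs per cell) and in 0.746% of 3752 cells with at least 3 CD3 UMIs and at most 2 C1Q UMIs (median 7251.5 UMIs), and the shares for ERRFI1 were 86.9% and 3.55%. In 651 cells with NK genes (median 6319 UMIs) TGFB2 was found in 1.54% and ERRFI1 in 5.22%, at 6.76 and 25.3 CPM. The highest of these cells held 86 UMIs of TGFB2 and ERRFI1 together, so the pooled levels there lean on single cells. Reference cells held at most 2, and the 2 kinds cannot be compared by these levels. The 2552 cells with at least 5 UMIs of VCAN and FCN1 and at most 2 of C1Q held TGFB2 at 4.79 CPM and ERRFI1 at 13.5 CPM with a median of 11034.5 UMIs. Since the limit of 3 UMIs chose the TGFB2/ERRFI1 macrophages and not these cells, the values show the background and no difference between cell types.

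The count per cell had a long tail. Of the C1Q macrophages that met all other limits, 1658 had no UMI of either gene, 383 had 1, 189 had 2, 116 had 3, 92 had 4 and 296 had 10 or more. The limit of 3 thus cut a falling distribution and not a gap between groups. Among the TGFB2/ERRFI1 macrophages the summed count had a median of 8 UMIs and a maximum of 146. ERRFI1 had the higher count in 67.4% of the cells (ERRFI1-led), TGFB2 in 219 (TGFB2-led) and both were equal in 19. TGFB2 was at 0 in 311 cells, ERRFI1 was at 0 in 96 and both were present in 324, of which 130 held at least 3 UMIs of each gene.

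**Figure D1:**
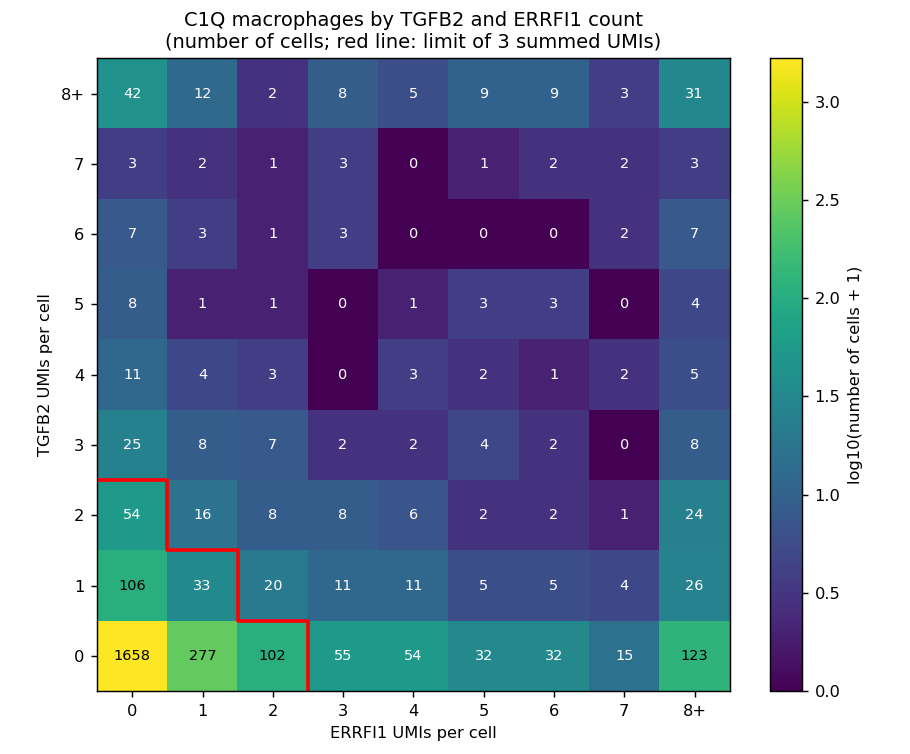
Number of C1Q macrophages with each combination of ERRFI1 (horizontal axis) and TGFB2 (vertical axis) UMIs per cell, capped at 8, with color on a log10 scale. Cells above and to the right of the red line are the 731 TGFB2/ERRFI1 macrophages, and 1658 cells at the lower left had neither gene.

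TGFB2 and ERRFI1 tended to be found in the same cells. Over all C1Q macrophages that met the other limits, 43.0% of the 546 cells with at least 3 ERRFI1 UMIs held TGFB2 (95% Clopper-Pearson interval 38.8% to 47.3%), against 13.4% of the 1914 cells without ERRFI1 (11.9% to 15.0%). The share was higher in the ERRFI1 cells of all 14 mice. The ERRFI1 cells were deeper, with a median of 11185 against 9458 UMIs, and the part of depth in this difference was not tested. Intervals here and below cover counting error only.

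TGFB2 and ERRFI1 were also found outside the limits. In all, 1299 C1Q macrophages held at least 3 UMIs of both genes together, and some of them exceeded other limits. Of these, 184 exceeded the limit on TOP2A and MKI67, 166 that on SLC2A1, HILPDA and ADM and 102 that on CXCL10. When only 1 limit was exceeded, the share with at least 3 UMIs was 41.6% of 262 hypoxic C1Q macrophages (those with at least 4 UMIs of SLC2A1, HILPDA and ADM; 35.6% to 47.8%). It was 10.1% of 189 LYVE1 positive C1Q macrophages (6.16% to 15.3%) and 14.04% of 399 cells over the CXCL10 limit (10.8% to 17.8%). Cells over the other limits lay between 15.4% and 25% (cell cycle, metallothionein, CD3 and IL1A with CCL20), apart from 7 of 14 cells over the keratin limit. The share in hypoxic cells was above the 24.7% within the limits, and the intervals of the LYVE1 positive and the CXCL10 cells overlapped. Hypoxic cells were deeper, with a median of 12284.5 UMIs against 9796 within the limits. LYVE1 positive and CXCL10 cells had medians of 12682 and 12953 UMIs. The part of depth in these shares was not tested.

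The label was checked against markers of macrophages and of other cells. The 9 macrophage markers summed to 4515 CPM in the TGFB2/ERRFI1 macrophages and 3922 CPM in the reference, with MRC1, the mannose receptor, the most abundant at 1903 CPM, CD163, the hemoglobin scavenger receptor, at 459 CPM, and no marker was at 0. Carcinoma RNA was looked at first, since 49 cells with at least 10 keratin UMIs and no PTPRC held ERRFI1 at 1127 CPM and TGFB2 at 83.0 CPM. In the TGFB2/ERRFI1 macrophages KRT8 was at 1.25 CPM against 296 CPM in those cells, TM4SF1 at 0.682 against 541, CAV1 at 1.93 against 582 and MET at 0.455 against 118. These carcinoma genes stood at 1.93 CPM or less in the TGFB2/ERRFI1 macrophages. The part of carcinoma RNA in the TGFB2 and ERRFI1 counts was not tested. CD109 and AXL, also on the carcinoma list, stood at 628 and 90.3 CPM in the TGFB2/ERRFI1 macrophages and at 290 and 61.3 CPM in the reference, while in the keratin cells CD109 was at 5.36 CPM and AXL at 157 CPM. CD109 and AXL made up nearly all of the list's sum, which was 736 CPM with no gene at 0 and was higher than in the reference in 14 of 14 mice. KRT19, which the rule had limited in both, was at 5.57 CPM in the TGFB2/ERRFI1 macrophages, 3.29 CPM in the reference and 1652 CPM in the keratin cells. T cell markers summed to 12.96 and 13.01 CPM in the TGFB2/ERRFI1 and the reference macrophages, with CD3D the most abundant at 4.09 and 4.31 CPM, but the rule had limited CD3D, CD3G and TRAC in both. CD3E, the marker it did not limit, was at 3.75 and 4.27 CPM. NK markers summed to 232 CPM in the TGFB2/ERRFI1 macrophages and 244 CPM in the reference, most of it GNLY at 180 and 187 CPM, and neither list had a gene at 0.

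SLC16A10 and SPP1 had been named with the cells, so they are given as a description. SLC16A10, a transporter of aromatic amino acids, ranged from 3800 to 6984 CPM over the 13 mice in the TGFB2/ERRFI1 macrophages (median 4755) and from 1468 to 3385 CPM in the reference (median 2058). The ranges did not overlap. SPP1, which encodes osteopontin, ranged from 8786 to 33230 CPM (median 15060) and from 3017 to 22990 CPM (median 10600). Its ranges overlapped widely, but it was higher in the TGFB2/ERRFI1 macrophages in each of the 13 mice. Pooled over cells, SPP1 was higher still in the hypoxic C1Q macrophages, at 23490 CPM against 17610 CPM in the TGFB2/ERRFI1 macrophages.

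The level of these and other genes followed the TGFB2 and ERRFI1 count within the cells. Pooled over cells, SLC16A10 stood at 1879 CPM in the cells without a UMI of either gene, 2426 CPM with 1, 3473 CPM with 2, 3472 CPM with 3, 4421 CPM with 4 to 9 and 5955 CPM with 10 or more. The cells just outside the limit and those just inside it were thus alike in SLC16A10, and the reference already held cells partway along the gradient. YES1, a kinase of the SRC family, went from 79.3 CPM at 0 UMIs to 133 CPM at 2, 145 CPM at 3 and 323 CPM at 10 or more. LYZ, lysozyme, went the other way, from 974 CPM at 0 to 588 CPM at 2, 565 CPM at 3 and 418 CPM at 10 or more. C1QA stayed between 1807 and 2227 CPM in all of these bins. The median depth was 9182 UMIs per cell at 0, 10469 at 2, 10104 at 3 and 12422 at 10 or more.

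The next comparison asked which genes differed between the TGFB2/ERRFI1 macrophages and the reference macrophages of the same mice. It used counts summed per mouse and edgeR's quasi-likelihood test with the mouse as a block, adjusted over all 8801 genes tested by the Benjamini-Hochberg method. Of these, 2256 genes passed an adjusted p of 0.05, which was 25.6% of those tested, with 1237 higher (14.1%) and 1019 lower (11.6%). These totals include genes of the rule, such as TGFB2 and ERRFI1, whose difference was set by the choice of cells. The counts of genes below are to be read against these shares. With the reference matched cell by cell on total UMIs within each mouse (median 10963 UMIs), 1609 of 6862 genes passed, 845 higher and 764 lower. The reactions held different mice, and each was also tested by itself. Of 1138 genes called in reaction 1 without TGFB2 and ERRFI1, 1135 were tested in reaction 2, where 1100 (96.9%) had the same direction and 609 were called in it.

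**Figure D2:**
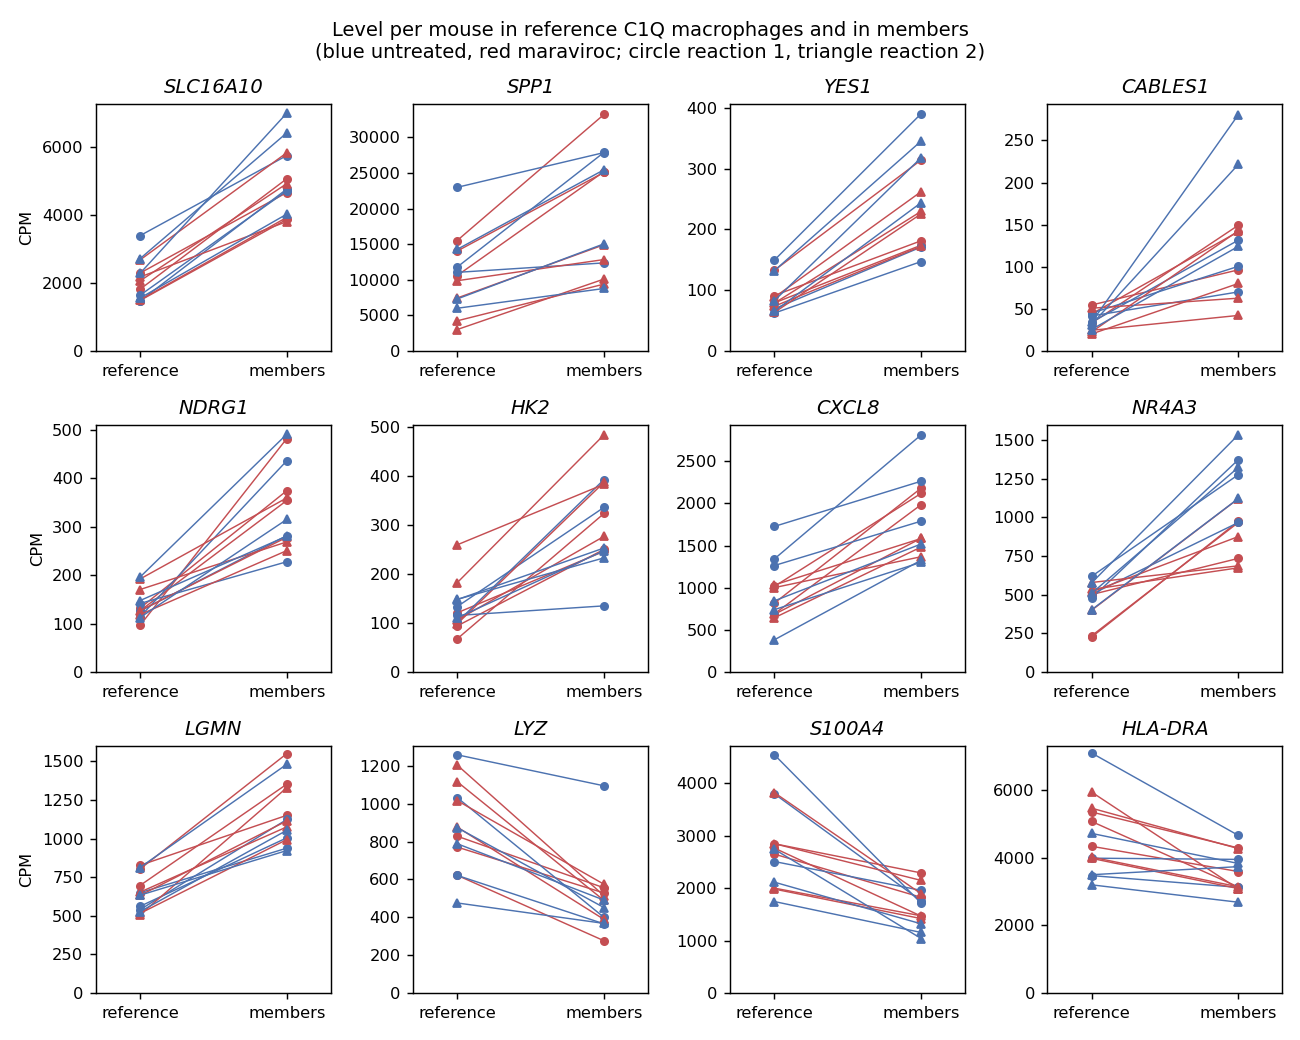
Level in CPM (vertical axes, linear) of 12 genes in the reference and in the TGFB2/ERRFI1 macrophages of each of 13 mice, with 1 line per mouse, blue for untreated and red for maraviroc, circles for reaction 1 and triangles for reaction 2. SLC16A10 lies at 3385 CPM or less in the reference and at 3800 CPM or more in the TGFB2/ERRFI1 macrophages, and LYZ falls in all 13 mice.

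CABLES1, YES1 and CD28 had the largest log2 fold changes among the abundant genes that were higher in every mouse. CABLES1, an adaptor between cyclin-dependent and other kinases, ranged from 42.3 to 281 CPM in the TGFB2/ERRFI1 macrophages (median 124) and from 20.3 to 54.7 CPM in the reference (median 34.1), a log2 fold change of 1.82 ± 0.20 (SE, n = 13 mice, edgeR adjusted p = 3.43e-07). It was higher in every mouse, although the lowest mice overlapped the reference. YES1 ranged from 147 to 390 CPM (median 230) and from 62.4 to 150 CPM (median 79.1), a log2 fold change of 1.45 ± 0.08 (edgeR adjusted p = 7.99e-12). Its groups overlapped only at the edge. ELL2, an elongation factor of RNA polymerase II, ranged from 564 to 1708 CPM (median 1131) and from 331 to 629 CPM (median 478), and was higher in each of the 13 mice (edgeR adjusted p = 1.21e-09). Its highest reference mouse lay above its lowest TGFB2/ERRFI1 value. CD28, best known as a costimulatory receptor of T cells, rose from a mean of 36.7 ± 16.4 CPM to 102 ± 41.5 CPM (SD) beside the CD3 genes that the rule held low. ZNF141, NCKAP5, AATK and DUSP4 rose by 1.26 to 1.39 on the log2 scale, in each of the 13 mice. DUSP4 is a phosphatase that inactivates ERK.

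Most tested genes that follow hypoxia and glycolysis were higher, although the rule held SLC2A1, HILPDA and ADM low in both kinds of cell. Of the 19 list genes tested, 14 were higher, none was lower and 5 did not pass, with a median log2 fold change of 0.65 beside -0.02 over all genes tested. NDRG1, a stress-response gene that hypoxia induces, ranged from 228 to 491 CPM (median 315) against 96.1 to 196 CPM (median 126), a log2 fold change of 1.27 ± 0.11 (edgeR adjusted p = 9.17e-09). Its groups did not overlap, as in 0.341% of the genes tested. HK2, which phosphorylates glucose in the first step of glycolysis, ranged from 135 to 484 CPM (median 277) against 67.4 to 259 CPM (median 115), with a log2 fold change of 1.24 ± 0.13 (edgeR adjusted p = 2.14e-07) and overlap of a few mice. SLC2A3, a glucose transporter, rose from 1068 ± 160 to 1746 ± 211 CPM, VEGFA, the main angiogenic growth factor, from 122 ± 26.6 to 217 ± 33.7 CPM, and PFKFB3, which drives glycolytic flux, from 160 ± 46.2 to 245 ± 58.7 CPM (mean ± SD, n = 13). LDHA, lactate dehydrogenase, stood at 416 ± 91.5 against 414 ± 90.7 CPM and did not pass. HIF1A, the oxygen-regulated transcription factor, was picked after its values were seen. It was at 1898 ± 236 CPM against 1221 ± 189 CPM, a log2 fold change of 0.64 ± 0.06 (edgeR adjusted p = 2.30e-08), and its groups did not overlap. Among the genes of the rule, SLC2A1 had a median over mice of 13.2 CPM against 8.17 CPM. ADM had similar medians, 20.6 and 20.4 CPM, and means of 30.5 ± 16.6 and 19.1 ± 7.15 CPM, and HILPDA was too low for the filter on counts. The part of hypoxic RNA below the limit in these differences was not tested.

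Immediate early genes are transcribed within minutes of a stimulus, and most of those tested were higher. Of 18 tested, 16 were higher, KLF2 was lower and 1 did not pass, with a median log2 fold change of 0.41. NR4A3, an orphan nuclear receptor, ranged from 673 to 1533 CPM (median 973) against 225 to 618 CPM (median 502), a log2 fold change of 1.17 ± 0.13 (edgeR adjusted p = 4.03e-07), with no overlap. EGR1 ranged from 65.5 to 193 CPM (median 131) against 40.3 to 114 CPM (median 53.8), and rose in each of the 13 mice with a log2 fold change of 1.01 ± 0.13 (edgeR adjusted p = 3.67e-06). KLF2, a factor that restrains inflammatory genes, fell from 97.5 ± 27.6 to 73.2 ± 21.2 CPM, and its call was lost with reaction 2 alone (edgeR adjusted p = 0.203) and with a hashtag share of at least 80% (0.0893). The tumors were digested by warm collagenase before the sort, and the part of handling in these genes was not tested.

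Among chemokines and cytokines, more genes were called higher than lower. Of 19 list genes tested, 11 were higher, IL1B was lower and 7 did not pass, with a median log2 fold change of 0.53. CXCL8, the neutrophil attractant interleukin-8, ranged from 1302 to 2814 CPM (median 1587) against 382 to 1727 CPM (median 844), a log2 fold change of 0.99 ± 0.10 (edgeR adjusted p = 9.92e-08). The groups overlapped but each of the 13 mice was higher. CXCL5 and CXCL1, which bind the same receptor family, rose by 1.35 ± 0.27 and 1.21 ± 0.10 on the log2 scale, PTGS2, the inducible cyclooxygenase, by 0.95 ± 0.10 and CCL3 by 0.71 ± 0.10. CCL3 has near-identical copies in the genome, so its count is uncertain. IL1B, the inflammasome-processed cytokine, fell from 372 ± 265 to 269 ± 245 CPM with all 13 mice lower. Its call was lost with reaction 1 alone (edgeR adjusted p = 0.0647). In the interferon response list, none of 19 genes was higher, IRF1 and IFI6 were lower and the median was 0.03.

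**Figure D3:**
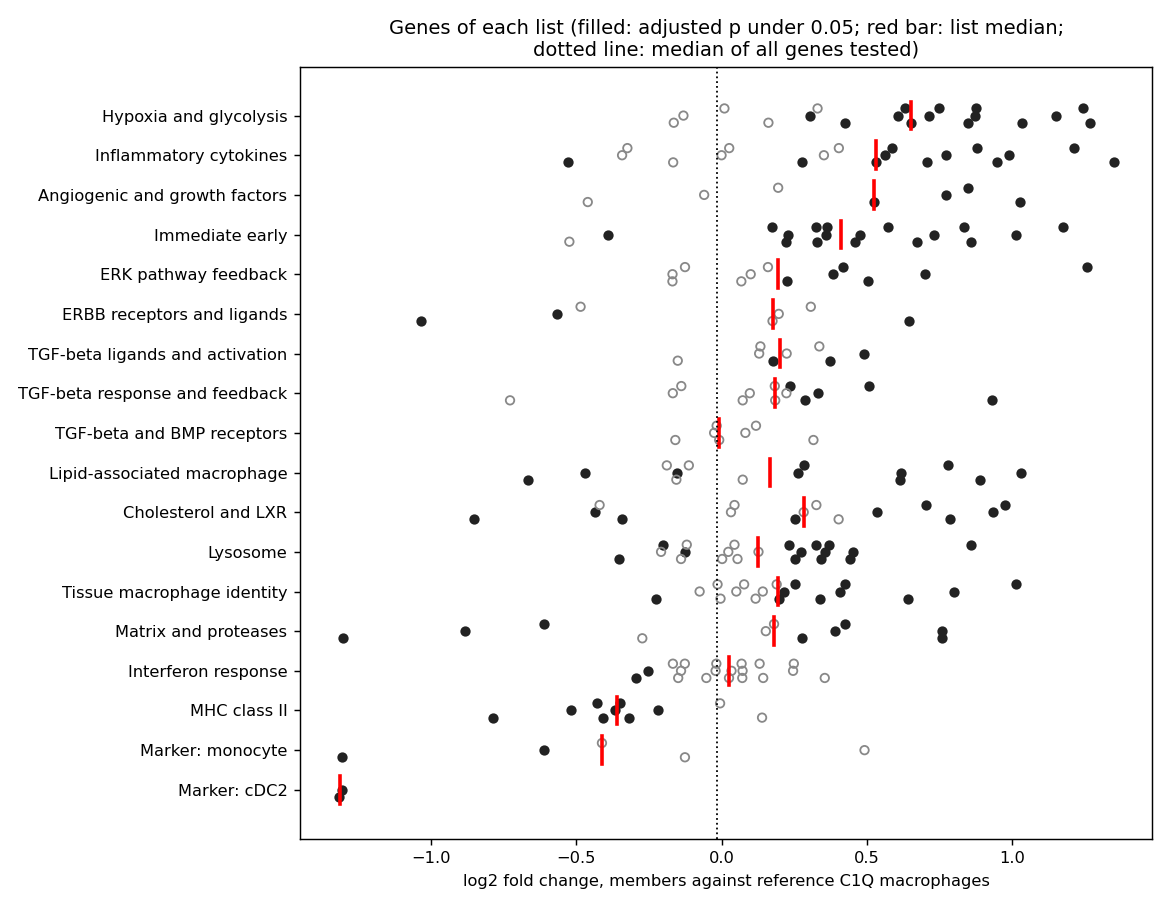
Log2 fold change of each tested gene between the TGFB2/ERRFI1 and the reference macrophages (horizontal axis) for 18 gene lists (rows), with filled points for an adjusted p under 0.05, a red bar at the list's median and a dotted line at the median of all genes tested (-0.02). The hypoxia list has the highest median (0.65) of the lists drawn, and the medians of the MHC class II and dendritic cell lists lie to the left of 0.

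The pathways to which TGFB2 and ERRFI1 belong were looked at next. Of 8 genes for TGF-β ligands and their activation, MMP14, ITGB5 and ITGB1 were higher, with log2 fold changes of 0.49 ± 0.08, 0.37 ± 0.09 and 0.18 ± 0.07. MMP14 is a membrane protease, and ITGB5 and ITGB1 are integrin subunits of the kind that release the latent ligand. TGFB1 did not pass, at 145 ± 32.9 against 160 ± 16.7 CPM. None of 7 receptor genes passed. TGFBR1 stood at 113 ± 27.4 against 108 ± 21.2 CPM, and TGFBR2 at 163 ± 22.1 against 182 ± 18.9 CPM. Of 13 genes of the response and its feedback, 5 were higher, PMEPA1, TGIF1, TGFBI and ID2 among them, and none was lower. TGFBI lost its call in reaction 1 alone (edgeR adjusted p = 0.0683). PMEPA1, which binds and dampens SMAD signals, ranged from 15.5 to 61.8 CPM (median 31.3) against 9.15 to 31.0 CPM (median 15.4), a log2 fold change of 0.93 ± 0.15 (edgeR adjusted p = 4.51e-05). It was higher in 12 of 13 mice. SMAD7 and SKIL, the usual feedback genes, did not pass, with log2 fold changes of -0.17 ± 0.10 and 0.10 ± 0.08.

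On the side of the EGF receptor family, 1 of 7 genes tested was higher and 2 were lower. HBEGF, a membrane-bound ligand of the EGF receptor, ranged from 404 to 557 CPM (median 481) against 202 to 425 CPM (median 285), a log2 fold change of 0.64 ± 0.09 (edgeR adjusted p = 9.04e-06). It was higher in 12 of 13 mice, and its ranges overlapped only slightly. AREG, another ligand of that receptor, fell from 141 ± 84.2 to 70.8 ± 46.9 CPM and NRG1, a ligand of its relatives, fell by 0.57 on the log2 scale. AREG lost its call with reaction 1 alone (edgeR adjusted p = 0.221). EGFR itself had 13 UMIs over all 731 TGFB2/ERRFI1 macrophages, or 1.48 CPM (exact Poisson interval 0.787 to 2.53). Feedback genes of the ERK pathway were 6 higher and 0 lower of 12, among them DUSP4, DUSP5, IER3 and DUSP1. DUSP5 lost its call with a hashtag share of at least 80% (edgeR adjusted p = 0.0652) and in reaction 1 alone (0.114). DUSP6, which acts on ERK in the cytoplasm, did not pass (log2 fold change 0.10 ± 0.06).

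Genes of lipid-associated macrophages moved in both directions. Of 14 lipid-associated genes tested, 7 were higher (APOE, GPNMB, PLIN2, APOC1, TREM2, CD9 and SPP1, the last named with the cells) and 3 were lower (CD36, FABP5 and TYROBP), with a median log2 fold change of 0.17. PLIN2, which coats lipid droplets, ranged from 306 to 839 CPM (median 470) against 209 to 546 CPM (median 296), a log2 fold change of 0.62 ± 0.08 (edgeR adjusted p = 2.18e-06), and was higher in all 13 mice although the ranges overlapped. GPNMB, a lysosomal glycoprotein, rose from 127 ± 35.2 to 219 ± 70.9 CPM. CD36, a receptor for fatty acids and oxidized lipoproteins, fell from 98.4 ± 33.2 to 63.8 ± 41.2 CPM, a call that was lost with the matched reference (edgeR adjusted p = 0.0635), in reaction 1 alone (0.378) and in 5 of the 13 fits without 1 mouse. FABP5 lost its call in reaction 1 alone (edgeR adjusted p = 0.0850). TREM2, a lipid-sensing receptor, was at 106 ± 33.6 against 92.0 ± 45.4 CPM, and its call was lost in reaction 1 alone (edgeR adjusted p = 0.578), under 4 other settings and in 9 of the 13 fits that each left out 1 mouse. HMOX1, heme oxygenase, was at 620 ± 294 against 633 ± 180 CPM and did not pass.

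Cholesterol genes also moved in both directions. INSIG1, ABCA1, ABCG1, NPC1, MYLIP and SOAT1 were higher and SQLE and SREBF2 were lower. ABCA1, which exports cholesterol from the cell, ranged from 489 to 1083 CPM (median 770) against 325 to 509 CPM (median 395), a log2 fold change of 0.93 ± 0.07 (edgeR adjusted p = 3.19e-09). INSIG1, which holds back sterol synthesis, rose from 268 ± 57.9 to 527 ± 131 CPM. Of 21 lysosomal genes, 10 were higher and 3 lower. LGMN, a lysosomal endopeptidase, ranged from 923 to 1551 CPM (median 1115) against 506 to 827 CPM (median 633), with no overlap and a log2 fold change of 0.86 ± 0.07 (edgeR adjusted p = 3.19e-09).

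Tissue macrophage genes were 9 higher and 1 lower of 18. SELENOP, a selenium carrier, rose from 210 ± 99.8 to 399 ± 89.2 CPM, MSR1, a scavenger receptor, from 268 ± 73.2 to 474 ± 162 CPM and MRC1 from 1434 ± 178 to 1915 ± 357 CPM. CSF1R, the receptor of M-CSF, fell slightly from 307 ± 21.0 to 263 ± 33.9 CPM, and its call was lost in either reaction alone (edgeR adjusted p = 0.194 in reaction 1 and 0.0531 in reaction 2). Of 11 genes of the matrix and its proteases, MMP12, MMP19, PLAUR, CTSB and CTSL were higher and FN1, TIMP1 and VCAN were lower. MMP12, the macrophage elastase, ranged from 1023 to 3048 CPM (median 1418) against 470 to 1910 CPM (median 774) and was higher in 12 of 13 mice. TIMP1, an inhibitor of such proteases, ranged from 140 to 365 CPM (median 222) against 237 to 1028 CPM (median 401) and was lower in all 13. Among angiogenic and growth factors, PDGFB, VEGFA, OSM and PDGFC were higher and none was lower of 7, and PDGFB rose from 15.3 ± 7.57 to 30.8 ± 9.91 CPM.

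Among the lower genes were those of antigen presentation. Of 10 MHC class II genes, none was higher and 8 were lower, with a median log2 fold change of -0.36. HLA-DRA ranged from 2681 to 4657 CPM (median 3589) against 3196 to 7095 CPM (median 4336), a log2 fold change of -0.35 ± 0.07 (edgeR adjusted p = 4.27e-04), and was lower in 12 of 13 mice. CD74, the chaperone of these molecules, stood at 4532 ± 536 against 4553 ± 574 CPM, and CIITA, their master regulator, at 172 ± 35.01 against 156 ± 44.5 CPM, and neither passed. LYZ ranged from 276 to 1095 CPM (median 489) against 476 to 1259 CPM (median 874) and S100A4, a calcium-binding protein of motile cells, from 1038 to 2291 CPM (median 1712) against 1745 to 4549 CPM (median 2744). Both were lower in all 13 mice, with log2 fold changes of -0.84 ± 0.09 and -0.74 ± 0.09 (edgeR adjusted p = 1.73e-07 and 1.25e-06). CRIP1, DLGAP2, CD1C, JAML, LTA4H, S100A10, TAGLN2, CCDC167 and NME1 fell by 0.61 to 1.47 on the log2 scale, also in every mouse, and NME1 lost its call when all cells were thinned to 5000 UMIs (edgeR adjusted p = 0.0667).

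Markers of some other myeloid cells moved with these genes. The 3 markers of type 2 conventional dendritic cells summed to 32.3 CPM in the TGFB2/ERRFI1 macrophages and 87.3 CPM in the reference, were lower in all 14 mice, and none was at 0. CD1C was at 15.9 and 42.5 CPM, CLEC10A at 15.9 and 43.5 CPM and FCER1A at 0.455 and 1.24 CPM. Both of the markers tested were lower. The 5 monocyte markers summed to 2590 against 3223 CPM and were higher in the TGFB2/ERRFI1 macrophages in 1 of 14 mice, with S100A9 the most abundant at 1711 and 1928 CPM and none at 0, and FCN1 and VCAN were lower of the 5 tested. FCN1 fell from 132 ± 59.7 to 54.0 ± 29.8 CPM, whereas S100A12, which did not pass, was at 17.4 against 12.1 CPM. The 3 plasmacytoid dendritic cell markers went the other way, with sums of 175 and 133 CPM that were higher in 10 of 14 mice. Nearly all of it was IL3RA, which was called higher at 172 and 131.5 CPM. Of the mature dendritic cell markers, CCR7 was at 12.05 against 6.49 CPM, LAMP3 at 4.89 against 5.59 CPM and CCL19 at 5.68 against 8.70 CPM. Their sums were 22.6 and 20.8 CPM, higher in the TGFB2/ERRFI1 macrophages in 4 of 14 mice. The part of dendritic or monocyte RNA in the lower genes was not tested.

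Hypoxic C1Q macrophages held TGFB2 at 176 CPM and ERRFI1 at 290 CPM and were kept apart by SLC2A1, HILPDA and ADM. Of 5305 genes tested in 13 mice, 1216 passed (22.9%), with 538 higher (10.1%) and 678 lower (12.8%) in the TGFB2/ERRFI1 macrophages. Of 17 hypoxia genes tested, 15 were lower and none higher, a contrast that the limit on SLC2A1, HILPDA and ADM had built in. ENO2 and PFKFB4 had the largest changes of that list, TESK2, MXI1 and ADCY3 were other abundant genes lower in every mouse, and PLIN2 stood at 499 ± 157 against 2112 ± 783 CPM. All of the 10 heat shock genes tested were lower, with a median log2 fold change of -1.25 beside -0.002 over all genes, and DNAJB1, a co-chaperone, was at 150 ± 54.3 against 476 ± 250 CPM. HSPA1A and HSPA1B are near-identical copies whose separate counts are uncertain. Tissue macrophage genes were 7 higher and 1 lower of 18, among them MERTK, a receptor for the uptake of dead cells, at 388 ± 95.9 against 197 ± 83.5 CPM (log2 fold change 1.02 ± 0.15, edgeR adjusted p = 3.67e-05). SLC16A10 was at 4978 ± 1025 against 3292 ± 1231 CPM, so its level in the hypoxic cells lay between those of the TGFB2/ERRFI1 and the reference macrophages. CXCL8 and HMOX1 went the other way, at 1795 ± 448 against 3743 ± 1204 CPM and 620 ± 292 against 2229 ± 863 CPM. Of 14 lipid-associated genes tested, 8 were lower, SPP1, GPNMB and CD9 among them, and 0 were higher. NARS2, PARD3B, CCDC138, PRMT9, CASS4 and THBS1 were the highest in the TGFB2/ERRFI1 macrophages among the abundant genes with the same direction in each mouse, with log2 fold changes from 1.35 to 1.85. THBS1, thrombospondin, is an activator of latent TGF-β.

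LYVE1 positive C1Q macrophages, which carry a hyaluronan receptor of resident macrophages, held TGFB2 at 41.0 CPM and ERRFI1 at 39.4 CPM. In the 8 mice with at least 10 cells of each kind, 1285 of 5343 genes passed (24.1%), with 717 higher (13.4%) and the rest lower (10.6%) in the TGFB2/ERRFI1 macrophages. MMP12 stood at 1814 ± 776 against 152 ± 132 CPM (log2 fold change 3.67 ± 0.40, edgeR adjusted p = 3.58e-06), HK2 at 338 ± 116 against 46.7 ± 78.9 CPM and TREM2 at 109 ± 29.9 against 18.9 ± 15.6 CPM, each higher in 8 of 8 mice. AC093895.1, CCL3L1, CXCR4 and MYO10 were the other leading genes, and CCL3L1 belongs to a family of near-identical copies. CCL18, a chemokine of alternatively activated macrophages, stood at 52.3 ± 39.9 against 2453 ± 1021 CPM, MARCO, a scavenger receptor, at 17.3 ± 11.5 against 422 ± 218 CPM and TTN, PDE4D, CCDC141 and CYP1B1 were lower by 4.49 to 6.83 on the log2 scale. Of 18 tissue macrophage genes, 10 were lower, FOLR2 and SELENOP among them, and 4 were higher. Hypoxia genes were 12 higher and 0 lower of 14, and immediate early genes 2 higher and 5 lower of 16, with NR4A3 among the higher and EGR1 among the lower. YES1 was at 269 ± 80.9 against 247 ± 115 CPM and did not pass (edgeR adjusted p = 0.707).

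Cells led by TGFB2 and cells led by ERRFI1 were compared within 10 mice that had at least 10 of each. Of 4978 genes tested, 10 passed (0.201%), 3 higher (0.0603%) and 7 lower (0.141%) in the TGFB2-led cells, beside 401 (8.06%) at an unadjusted p under 0.05. Of these calls 2 were TGFB2 and ERRFI1, which chose the cells. DDIT4, an inhibitor of mTORC1 that stress induces, was at 94.7 ± 15.9 CPM in the TGFB2-led cells and 178 ± 38.8 CPM in the ERRFI1-led cells, lower in 10 of 10 mice (log2 fold change -0.92 ± 0.11, edgeR adjusted p = 1.35e-04). CD14, the coreceptor for lipopolysaccharide, and UBA6, which activates ubiquitin, were lower in each mouse too, by 0.41 ± 0.07 and 0.52 ± 0.10 on the log2 scale (edgeR adjusted p = 0.0217 and 0.0292). HLA-DQA1 and ATP2C1 were higher and PPBP, CXCL5 and VCAN lower, each in 9 of 10 mice. SLC16A10 stood at 5185 ± 1500 and 5365 ± 1136 CPM and did not pass (log2 fold change -0.07 ± 0.10). Without the mouse as a block 4 genes passed, 1 higher and 3 lower. At most 1 of the 3 higher calls and 3 of the 7 lower calls were thus kept. UBA6 and CD14 were no longer among them (edgeR adjusted p = 0.251 and 0.312). Both were also lost with a hashtag share of at least 80% and in either reaction alone, UBA6 with a mitochondrial share under 8% and in 7 of the 10 fits without 1 mouse, and CD14 in 2 of these 10. With reaction 1 alone DDIT4 did not pass (edgeR adjusted p = 0.255).

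The share of the TGFB2/ERRFI1 macrophages among C1Q macrophages was compared between treatments, since the study asked how the drug alters tumor macrophages. In untreated mice it lay between 6.90% and 29.96% (median 21.8%), and with maraviroc between 19.4% and 38.3% (median 25%). The groups overlapped, and the lowest mouse was untreated with 8 such cells among 116. The means were 20.9% ± 8.37 (SD, n = 7) and 27.6% ± 6.22 (n = 7), a difference of 6.69 percentage points that did not pass a two-sided exact permutation test over the mice (p = 0.119). Within reaction 1 the difference was 7.43 points (exact p = 0.114, 4 against 3 mice) and within reaction 2 it was 2.85 points (exact p = 0.457, 3 against 4 mice). Permuting the mice within reactions gave an exact p of 0.0702. Without the mouse of 8 cells the difference was 4.36 points (exact p = 0.238). As a share of all kept cells, the TGFB2/ERRFI1 macrophages were 4.19% ± 2.52 and 4.75% ± 1.46 (exact p = 0.629).

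The share differed between the reactions along with depth. It was 19.4% of 1479 C1Q macrophages in reaction 1 (95% Clopper-Pearson interval 17.4% to 21.5%; median 6429 UMIs per cell) and 29.96% of 1482 in reaction 2 (27.6% to 32.4%; median 12632 UMIs). No mouse of reaction 1 exceeded 24.72%, and none of reaction 2 was under 25%. With each cell thinned to 5000 UMIs, which left out 540 cells of reaction 1 but 35 of reaction 2 (263 from untreated and 312 from treated mice), at least 1 UMI of TGFB2 or ERRFI1 was found in 35.3% (32.2% to 38.4%) of 939 cells of reaction 1 and 37.2% (34.7% to 39.7%) of 1447 of reaction 2. These intervals overlapped, but this share also used a lower UMI limit and other cells, so the part of depth alone was not tested. By treatment, this thinned share was 33.1% ± 5.35 without and 38.01% ± 4.49 with maraviroc (exact permutation p = 0.0944, n = 7 each).

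**Figure D4:**
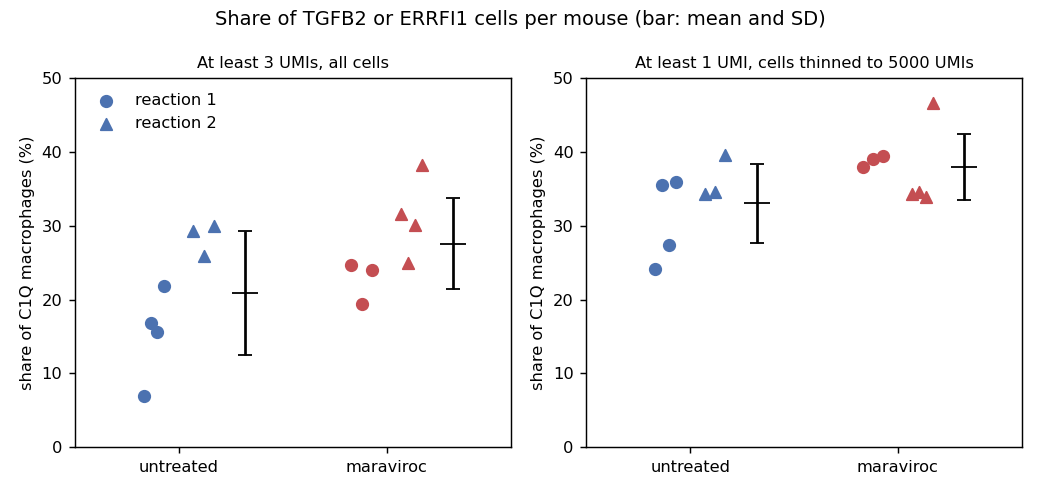
Share of C1Q macrophages (vertical axes, percent) that were TGFB2/ERRFI1 macrophages by the limit of 3 UMIs (left) or held at least 1 UMI after thinning to 5000 UMIs (right), 1 point per mouse, circles for reaction 1 and triangles for reaction 2, with the mean and SD of 7 mice beside each group. The treatments overlap in both panels, and the reactions stand apart in the left panel (19.4% and 29.96%) and come closer in the right.

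Within the TGFB2/ERRFI1 macrophages, none of 6884 genes passed between 7 maraviroc-treated and 6 untreated mice with edgeR (0%), and none passed with DESeq2, while 301 (4.37%) had an unadjusted edgeR p under 0.05 and 235 a DESeq2 p under 0.05. The untreated mouse with 8 cells was left out. The 6 abundant genes with the lowest p were all lower with maraviroc. TNFRSF10B, a death receptor for TRAIL, lay between 84.3 and 179 CPM in untreated mice (median 121) and between 50.8 and 105 CPM in treated mice (median 67.98), with a log2 fold change of -0.90 ± 0.19 (edgeR adjusted p = 0.460). The groups overlapped, and 7 of 7 treated mice lay below the untreated mean. NR4A3 ranged from 966 to 1533 CPM (median 1298) and from 673 to 1120 CPM (median 875), with a log2 fold change of -0.56 ± 0.14 (edgeR adjusted p = 0.578). HEATR5B, LINC00910, CLCN3 and NAF1 had log2 fold changes from -0.85 to -1.41. CLCN3 was the 1 of these 6 whose groups did not overlap, as did those of 8 genes (0.116%) in all.

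SLC16A10 was at 5428 ± 1137 CPM in untreated and 4559 ± 755 CPM in maraviroc-treated mice (log2 fold change -0.25 ± 0.14, edgeR unadjusted p = 0.0797), SPP1 at 19560 ± 8509 and 18610 ± 9065 CPM and PLIN2 at 522 ± 213 and 477 ± 103 CPM. The SDs were wide beside the differences. ERRFI1 was at 610 ± 52.2 and 615 ± 129 CPM and TGFB2 at 391 ± 146 and 350 ± 120 CPM. None of the 19 interferon response genes tested passed, with a median log2 fold change of 0.20 beside -0.01 over all genes, and none of 16 hypoxia genes passed, with a median of 0.05. The effect of maraviroc was also compared with that in the reference of the same mice. Of 8801 genes, 1 passed (0.0114%) beside 419 (4.76%) at an unadjusted p under 0.05. This was TNFRSF10B, whose effect differed by -1.20 ± 0.20 on the log2 scale (edgeR interaction term, adjusted p = 0.0480). In the reference it was at 66.3 ± 21.4 CPM in untreated and 81.6 ± 24.1 CPM in treated mice. This call was lost with other size factors (edgeR adjusted p = 0.0525), with a hashtag share of at least 80% (0.145), with a mitochondrial share under 8% (0.116), in either reaction alone and in 10 of the 13 fits that each left out 1 mouse. In simulated counts, 200 genes were changed by 1 on the log2 scale. The test for a difference of maraviroc effects found 57% of them and that within the TGFB2/ERRFI1 macrophages 83%. The comparison with the reference found 95%, so effects of maraviroc could be missed more readily.

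**Figure D5:**
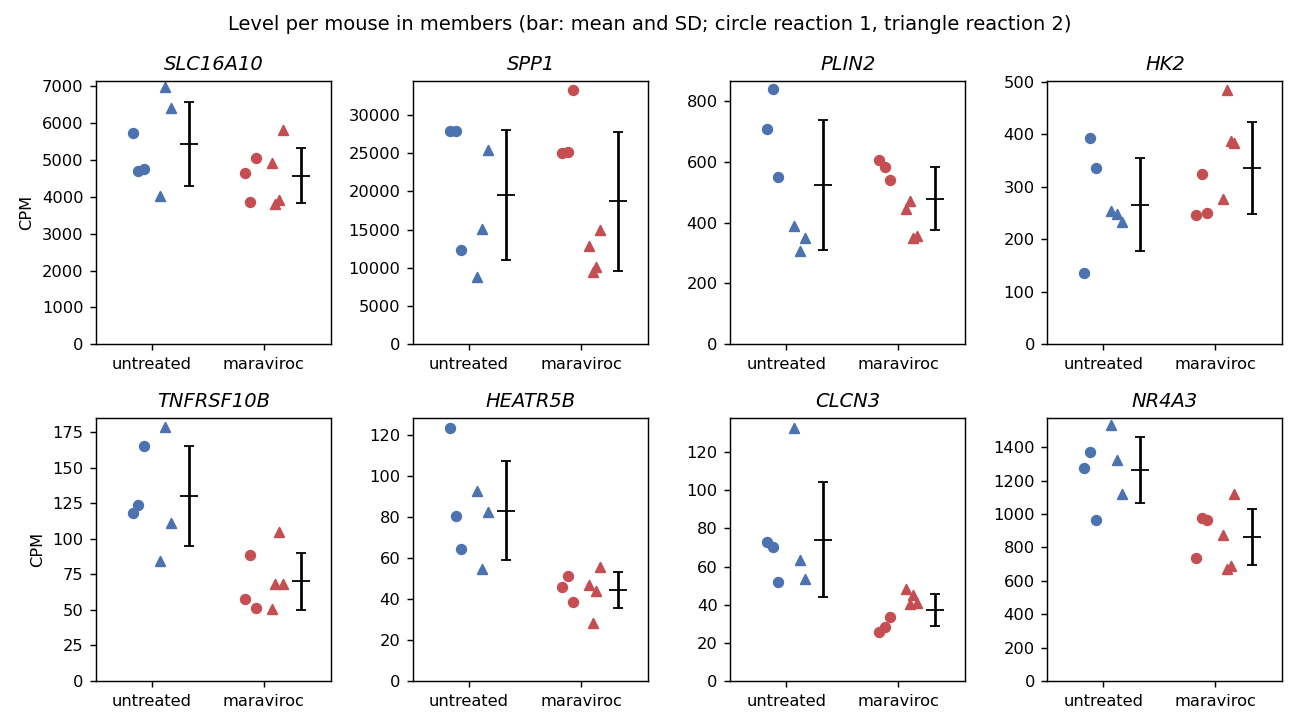
Level in CPM (vertical axes, linear) of 8 genes in the TGFB2/ERRFI1 macrophages of 6 untreated (blue) and 7 maraviroc-treated mice (red), 1 point per mouse, circles for reaction 1 and triangles for reaction 2, with mean and SD at the side. SPP1 spreads from 8786 to 27900 CPM in untreated and from 9402 to 33230 CPM in treated mice, and TNFRSF10B lies lower in treated mice with overlap.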

How the data were processed

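Single cells were profiled in 2 reactions, each with 7 hashtagged mice. The values deposited by the authors were UMI counts per gene and barcode, with no normalization, over 36601 genes and the hashtags. Per the labels' processing notes, Cell Ranger 9.0.1, GRCh38 and Seurat 5.1.0 were used. The treatment of each mouse came from the name of its hashtag as deposited. Every per-sample column of the files was used (0 left out).

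Barcodes were kept with 601 to 6000 genes, a mitochondrial share under 12.5% and a top hashtag with at least 60% of the hashtag UMIs. The hashtag limit removes many doublets between mice. Doublets within a mouse were not removed, and no doublet caller was run. The members and the gene lists were chosen with earlier results of these data known. Nothing states that same-numbered mice were paired, and the mouse was the block only where both kinds of cell came from it.

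Counts were summed per mouse and kind of cell (at least 10 cells, which left 13 mice with the reference) and tested with edgeR 4.0.16 (TMM, filterByExpr, quasi-likelihood F-test) in R 4.3.3, with Benjamini-Hochberg adjustment over all genes tested and a threshold of 0.05. CPM levels per mouse used the TMM-scaled library sizes, and levels pooled over cells used total UMIs. Shares were compared with exact permutation tests (scipy 1.17.1, Python 3.11.15), and intervals were exact (95%). The edgeR fits were tested on simulated counts, and the other steps were not. Named genes were the 12 most higher and 12 most lower abundant genes (average log2 CPM of at least 5, same direction in every mouse; 6 and 6 in the other class comparisons), the 6 with the lowest p for treatment, and genes of the lists. Genes of the rule, sex-linked, antigen receptor, mitochondrial and ribosomal genes were left out of that ranking. Tried as alternatives were RLE size factors, DESeq2 1.42.0, no filter on low counts, a hashtag share of at least 80%, a mitochondrial share under 8%, each reaction alone, no block, a depth-matched reference, thinning to 5000 UMIs, other UMI limits and leaving out each mouse. Human sequences and coordinates were not analysed here, and some genes are not reported here.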

Additional observations from a re-analysis of the deposited data

Results flagged for a closer look

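The TGFB2-led share of the TGFB2/ERRFI1 macrophages stood far from the other mice of its group in 2 mice. It was 75% in untreated mouse 1 of reaction 1, which had 8 such cells, while the other untreated mice lay between 22.6% and 32.5% (median 28.7%). It was 7.69% in maraviroc-treated mouse 2 of reaction 2, while the other treated mice lay between 29.4% and 40.5% (median 31.98%). CLCN3, a chloride-proton exchanger of endosomes, stood at 132.7 CPM in the TGFB2/ERRFI1 macrophages of untreated mouse 1 of reaction 2, against 51.65 to 73.03 CPM (median 63.48) in the other untreated mice. These were 3 of 28 groups of mice examined for a distant value, and chance alone marks about 1 in 20.

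TNFRSF10B had a maraviroc effect that differed between the TGFB2/ERRFI1 and the reference macrophages by -1.20 on the log2 scale (edgeR interaction term, adjusted p = 0.0480), a call that was lost under 5 other settings and in 10 of the 13 fits without 1 mouse. In the TGFB2/ERRFI1 macrophages it was at 130 ± 35.4 CPM in 6 untreated and 69.97 ± 20.1 CPM in 7 treated mice.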

How the results depend on the processing

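Direction was kept in all 2220 values of single genes recomputed under an alternative. Many of these genes had been named for the same direction in every mouse or for the lowest p. The alternatives also reused the same mice, so few reversals could occur and the count is no independent support. Against the reference, 2256 genes passed, and 1116 and 1140 in reaction 2 and reaction 1 alone (range without 1 mouse 2024 to 2255). TREM2 lost its call under 5 alternative settings and in 9 fits without 1 mouse, and APOE and FN1 with reaction 2 alone (edgeR adjusted p = 0.131 and 0.0597). Against hypoxic cells 1216 genes became 420 and 433 in the single reactions (without 1 mouse 1008 to 1225), and against LYVE1 positive cells 1285 became 517 in reaction 1 alone (1108 to 1226 without 1 mouse). These fits hold fewer mice. For TGFB2-led against ERRFI1-led cells, 10 genes became 24 with DESeq2, 128 without a filter on low counts, 6 with a hashtag share of at least 80%, 6 and 4 in reaction 2 and 1 alone, and 4 to 11 without 1 mouse. For maraviroc, 0 genes became 44 without a filter and 1 (LINC00910) without untreated mouse 2 of reaction 2, with a range of 0 to 1. For the difference of maraviroc effects, 1 gene became 0 with RLE size factors, with the stricter hashtag share, with a mitochondrial share under 8% and in reaction 2 alone, 37 without a filter, and 0 to 2 without 1 mouse. TNFRSF10B was not called in reaction 1 alone either (edgeR adjusted p = 0.222), where the 1 gene called was another. The cause was not tested. The share by treatment differed by 4.355 to 8.199 points without 1 mouse. The gap in share between the reactions, 10.55 points, was 1.93 and 2.32 points for at least 1 and at least 2 UMIs after thinning, which also lowered the limit from 3 UMIs and left out shallow cells, an alternative chosen after seeing the data.

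Without the replicate block (the mouse), 1861 genes passed against the reference, 1152 against hypoxic cells, 1249 against LYVE1 positive cells and 4 for TGFB2-led against ERRFI1-led cells. With the reaction as a block, 0 genes passed for maraviroc, and the share gave an exact permutation p of 0.0702. IL1B, FABP5, TREM2 and HLA-DQA1 lost their calls against the reference without the block (edgeR adjusted p = 0.251, 0.0672, 0.554 and 0.0767). Depth limits the shares, since a limit in UMIs is met more readily by deeper cells, and 1 library per reaction cannot separate reaction from depth. Nothing states that the mice came from separate donors, so p-values measure the spread between mice. With the mouse as a block this is the spread of the differences within each mouse.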

Other observations

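Further gene lists were compared between the TGFB2/ERRFI1 and the reference macrophages. Of 12 genes of the glucocorticoid response, 5 were higher and none lower, with a median log2 fold change of 0.16. PER1, a clock gene, rose from 71.87 ± 11.9 to 117 ± 17.9 CPM and SGK1, a kinase, from 339 ± 88.1 to 482 ± 81.9 CPM (mean ± SD, n = 13 mice). Of 17 transporters of amino acids and monocarboxylates, 4 were higher, counting SLC16A10, which had been named with the cells, and SLC16A6 was lower. SLC7A5, which carries large neutral amino acids, rose from 73.55 ± 13.1 to 107 ± 31.4 CPM and SLC16A3, a lactate exporter, from 170 ± 17.3 to 222 ± 27.7 CPM. Of 12 genes tested from the NRF2 and heme list, TFRC and FTL were higher, BLVRB was lower and 9 did not pass. The median log2 fold change was -0.03. TFRC, the transferrin receptor, rose from 402 ± 162 to 746 ± 238 CPM, while BLVRB, which acts on heme breakdown products, fell from 235 ± 51.6 to 180 ± 33.7 CPM.

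Of 11 genes of the unfolded protein and integrated stress responses, DDIT4, SESN2, HERPUD1 and ATF5 were higher and HSPA5 was lower. DDIT4 rose from 88.33 ± 20.0 to 147 ± 35.2 CPM, and ATF4, the transcription factor of the integrated stress response, was at 58.7 ± 13.7 against 59.2 ± 6.33 CPM and did not pass. Of 10 heat shock genes HSPH1 was higher, HSPB1 and HSPE1 were lower and 7 did not pass. Of 6 osteoclast and fusion genes CD109, ITGB3 and ACP5 were higher and TNFRSF11A, the receptor of RANKL, was lower. NAMPT, which makes NAD, and ZNF331, a zinc finger gene, were picked after their values were seen. NAMPT stood at 4313 ± 544 against 2316 ± 376 CPM and ZNF331 at 2259 ± 277 against 1010 ± 177 CPM, with no overlap between the groups.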
